A study of Cavia porcellus with 18 samples.

Results

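CG-rich H3K4me1 peaks that lie far from listed start sites were examined in the hippocampus of the guinea pig (Cavia porcellus). The peaks come from the authors' table of averages, which holds 99978 H3K4me1 peaks. A peak was taken when every start site listed for it was more than 20000 bases away and when it held at least 50 C positions of the genome per 1000 bases. This gave 4222 peaks (4.22% of all), which covered 12.5 Mb on 222 of 350 scaffolds. They are called CG-rich distal peaks below. The choice rests on position and sequence, and no methylation or Pol II value entered it.

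All libraries came from 3 wild type male animals of 12 weeks, with no other treatment or genotype group. Each animal gave 1 library of H3K4me1 ChIP-seq, 1 of H3K4me1 ChIP with bisulfite treatment (ChIP-bisulfite below) and 1 of ChIP-seq for Pol II PS5, which is RNA polymerase II phosphorylated on serine 5. Each also gave 2 bisulfite libraries, labelled 50 and 100 bp, by reduced representation bisulfite sequencing (RRBS), which reads genomic DNA digested with MspI and ApeKI without chromatin selection. Animals were pooled in the deposited values, 1 per assay, so no spread between animals can be given. The differences below therefore have no replicate check and were not tested, and SDs are across peaks or sites. Intervals are exact 95% binomial intervals that cover the counting of peaks or sites only, except those for means under the alternatives of processing.

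H3K4me1 is a histone mark of enhancers, active and primed, and of the flanks of promoters. Most CG pairs of a mammalian genome are methylated, while CpG islands, stretches where CG pairs are frequent, are mostly found unmethylated at promoters. CpG islands away from annotated promoters are known as orphan islands, and many of them behave as enhancers or as promoters that are active only in some tissues. Pol II PS5 is the form of the polymerase found at initiation, and it also occurs at active enhancers.

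The density that chose the peaks was checked first. The header calls the count a total number of C in the genome. It was even in each of the 99978 peaks, with a median of 22.4 per 1000 bases, and it was therefore read as the C positions of CG pairs on both strands. The limit of 50 then equals 25 CG pairs per 1000 bases. CG-rich distal peaks had a median of 61.7 positions per 1000 bases and a highest value of 181.9. Their median width was 2797 bases (238 to 13075), against 3107 bases over all peaks. The nearest listed start site lay at a median of 48892 bases and at most 1516348 bases. The annotation behind these start sites is not given in the sources used here, so distal means distal to the listed sites only. No genome sequence was used, and no sequence is printed.

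CG-rich distal peaks had a mean RRBS level of 52.7% (SD 26.5 over 4150 peaks with at least 3 RRBS C positions) and a median of 57.6%. The median was 68.7% over all 91875 such peaks, 71.4% in 50809 CG-poor distal peaks and 38.7% in 7606 CG-rich peaks with a start site within 20000 bases. The middle of the CG-rich distal peaks, from the lower to the upper quartile, ran from 32.4% to 75.1%. It overlapped the quartile ranges of both other groups, which were 57.0% to 82.0% and 15.5% to 64.0%.

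Weakly methylated peaks were a minority of the set. At or under 20% lay 684 CG-rich distal peaks, or 16.5% (interval 15.4 to 17.6), where 6.59% of all peaks lay. The shares were 2.39% in CG-poor distal peaks and 30.3% in CG-rich peaks near start sites. At or over 80% lay 694 CG-rich distal peaks, or 16.7% (15.6 to 17.9), against 26.7% of all peaks. The other 2772 (66.8%) were between these limits. Levels formed a broad mass with the fullest 10-point bin at 70% to 80%, which held 668 peaks, and a second, smaller accumulation under 10%, which held 364 peaks.

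**Figure D1:**
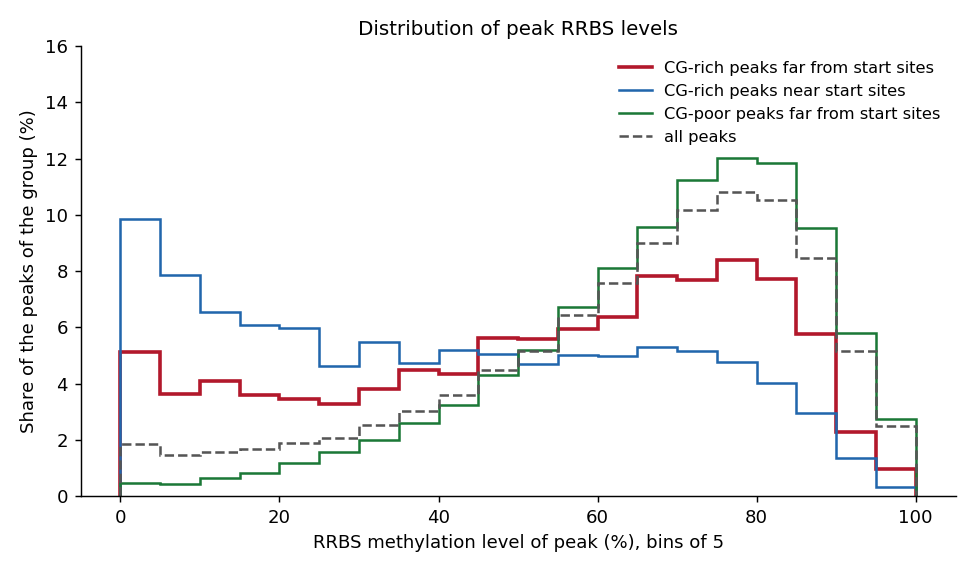
Share of peaks (vertical axis, % of each group) by RRBS level of the peak (horizontal axis, %, bins of 5) for CG-rich distal peaks, CG-rich peaks near start sites, CG-poor distal peaks and all peaks. CG-rich distal peaks have most of their mass on the right like CG-poor distal peaks, and a smaller rise at the left edge, where CG-rich peaks near start sites have their maximum.

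Each RRBS level of a CG-rich distal peak rested on a median of 20 C positions and 403.5 reads, with 19.3 reads per C position against 20 over all peaks. RRBS measured a median of 11.9% of the C positions of these peaks and 15.5% over all peaks, and RRBS positions are listed only from 10 reads upwards. At the limits of the rule the levels were close. Distal peaks with 50 to 51 positions per 1000 bases had a median of 68.2% (233 peaks) and those with 49 to 50 had 65.7% (263 peaks). Peaks of sufficient density at 20000 to 21000 bases had a median of 58.8% (102 peaks), against 56.0% at 19000 to 20000 bases (115 peaks).

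Within the set the level was lower at higher CG density. The median RRBS level was 65.5% in 1837 peaks with 50 to 60 positions per 1000 bases, 55.4% in 1531 with 60 to 80 and 39.5% in 476 with 80 to 100. In the 306 peaks with 100 or more it was 16.9%, and 163 of them (53.3%, interval 47.5 to 59.0) were at or under 20%. Even there the upper quartile was 45.2% and the highest level 97.8%.

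At like density, distal peaks were more methylated in RRBS than peaks close to a start site, and the gap was narrow in the densest peaks. At 50 to 60 positions per 1000 bases the median was 38.7% within 2000 bases of a start site (941 peaks), 59.1% between 2000 and 20000 bases (1596 peaks) and 65.5% beyond. At 60 to 80 positions the medians were 33.3%, 48.4% and 55.4%. At 100 or more they were 13.0% (680 peaks), 15.3% (483 peaks) and 16.9%. The share at or under 20% in that densest class was 63.4% within 2000 bases (interval 59.6 to 67.0) and 58.2% between 2000 and 20000 bases (53.6 to 62.6). The intervals of the latter and of the distal peaks overlapped.

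**Figure D2:**
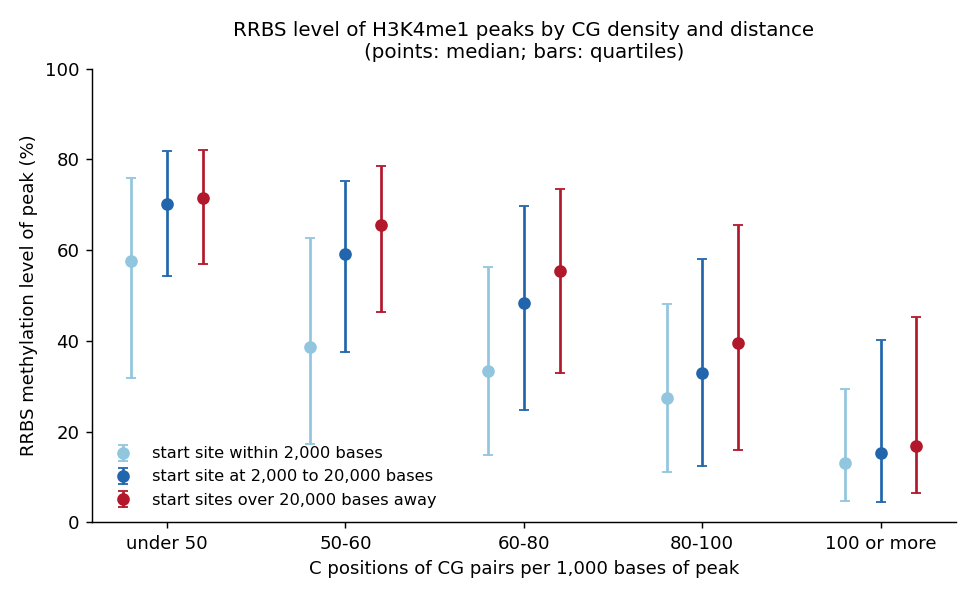
Median RRBS level of H3K4me1 peaks (vertical axis, %) by number of C positions of CG pairs per 1000 bases (horizontal axis) for 3 ranges of distance to the nearest listed start site. Points are medians and bars run from the lower to the upper quartile. Distal peaks are above the others up to 100 positions per 1000 bases, and at 100 or more the 3 medians lie between 13.0% and 16.9%.

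Beyond 20000 bases the distance itself went with little further difference. The median level was 56.7% at 20000 to 50000 bases (2133 peaks), 55.4% at 50000 to 100000 bases (1145 peaks) and 61.6% beyond 100000 bases (872 peaks). The shares at or under 20% were 16.6%, 16.7% and 15.9%. The table calls the nearest start sites Active or Inactive, words that are not defined in the sources used here. The Active one was nearer for 335 of the 4076 CG-rich distal peaks listed with both (8.22%), against 7.61% of all distal peaks listed with both. The median RRBS level was 57.4% where the Active start site was nearer (333 peaks) and 57.3% where the Inactive one was (3673 peaks).

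The 5 densest peaks, among those at least 1000 bases wide with at least 10 C positions in RRBS, were all weakly methylated. The densest lay on scaffold_104 from 1872684 to 1874069 and had 181.9 positions per 1000 bases and an RRBS level of 1.22% over 13 C positions and 167 reads. The second, on scaffold_0 from 6097428 to 6100627, had 11.1% over 30 positions and 461 reads. On scaffold_15 from 20575662 to 20577989 the level was 1.58%, on scaffold_99 from 152681 to 156899 it was 11.1%, and on scaffold_2 from 68592947 to 68597018 it was 1.72% over 58 positions and 1045 reads. None of the 5 overlapped a Pol II PS5 peak or held a CG site measured in both assays. Of all CG-rich distal peaks with 100 or more positions per 1000 bases 11.3% overlapped Pol II PS5, and 5 peaks are too few to compare.

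The H3K4me1 score of the list peak that holds a CG-rich distal peak went with the RRBS level. Each peak of the table lies inside 1 peak of the authors' H3K4me1 list, whose scores fall on 2 scales in 1 column. Only 18.6% of the CG-rich distal peaks were the whole list peak, against 28.2% of all peaks, so most scores belong to a wider region. Scores were not compared between the scales, and the low scale stands as a set of its own. Of the CG-rich distal peaks, 415 (9.83%, interval 8.95 to 10.8) lay in a peak of the low scale, against 14.3% of all peaks. The other 3807 had a median score of 63.5 on the high scale, against 60.5 over all peaks. Peaks in the upper quartile of these scores (73.5 or more) had a mean RRBS level of 41.9% (SD 25.9, 946 peaks). Those in the lower quartile (56.5 or less) had 56.8% (SD 25.02, 974 peaks), and those on the low scale had 73.2% (SD 19.1, 391 peaks).

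Density and width of these 3 sets were not the same. Their median densities were 65.0, 60.8 and 58.9 positions per 1000 bases, and their median widths 2936.5, 2923.5 and 1098 bases. The order held within each class of density. At 50 to 60 positions the means were 50.6%, 63.0% and 75.1%. At 100 or more they were 21.2% (SD 21.8), 30.7% (SD 25.3, 70 peaks) and 75.2% (SD 20.9, 11 peaks). With the same score limits all peaks gave 53.9%, 66.4% and 75.1%, CG-poor distal peaks 60.6%, 69.1% and 74.9%, and CG-rich peaks near start sites 34.4%, 43.2% and 73.3%.

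**Figure D3:**
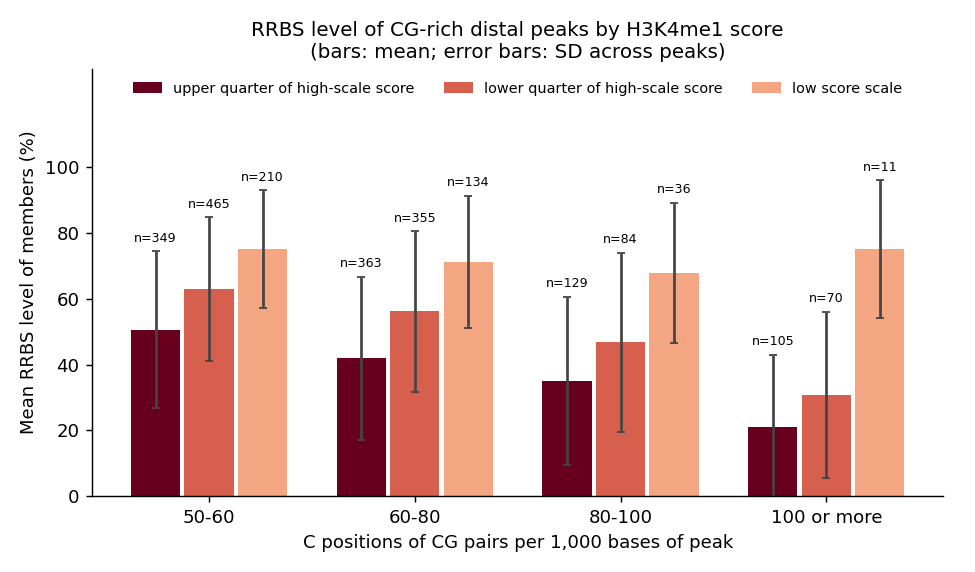
Mean RRBS level of CG-rich distal peaks (vertical axis, %) by class of CG density (horizontal axis) and by H3K4me1 score of the list peak that holds them. Bars are means, error bars are SDs across peaks, and n is the number of peaks. In each class of density the mean is lowest for the upper quartile of the score and highest for the low scale. The SD ranges overlap except between the upper quartile and the low scale at 100 or more positions, and 1 error bar there is cut at 0.

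Pol II PS5 was found on a small part of the set. Of the 4222 CG-rich distal peaks, 513 (12.2%, interval 11.2 to 13.2) overlapped at least 1 of the 67423 deposited Pol II PS5 peaks, where 10.5% of all peaks did. The share was 7.13% in CG-poor distal peaks and 24.9% in CG-rich peaks near start sites. Per megabase of peak there were 46.7, 23.9 and 82.2 Pol II PS5 peaks, and 34.9 over all peaks. The share was higher in wider peaks. Among peaks under 1500 bases the share was 5.43% in CG-rich distal peaks (interval 3.91 to 7.33) and 2.91% in CG-poor distal peaks (2.56 to 3.29). At 3000 to 4500 bases it was 17.0% (15.0 to 19.2) and 8.04% (7.64 to 8.45), and 32.3% in CG-rich peaks near start sites. More than 1 Pol II PS5 peak lay in 57 CG-rich distal peaks (1.35%), with 5 as the highest number. The share was 0.873% over all peaks, 0.489% in CG-poor distal peaks and 2.68% in CG-rich peaks near start sites.

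CG-rich distal peaks with Pol II PS5 were on average less methylated than those without, while in the densest class the means were nearly equal. The mean RRBS level was 43.3% with (SD 27.3, 506 peaks) and 54.1% without (SD 26.1, 3644 peaks), a difference of -10.8 percentage points. Peaks with Pol II PS5 were wider, with a median of 3591.5 against 2722.5 bases, while their median densities were 62.2 and 61.7 positions per 1000 bases. The difference was -11.5 points at 50 to 60 positions, -12.7 at 60 to 80 and -6.91 at 80 to 100. At 100 or more it was -0.206 points, with means of 27.9% over 35 peaks and 28.1% over 271 peaks. The medians there were 13.0% and 17.6%, and 22 of the 35 (62.9%) and 141 of the 271 (52.0%) were at or under 20%. The difference was -13.0 points over all peaks, -8.61 points in CG-rich peaks near start sites and -5.48 points in CG-poor distal peaks. Over all peaks the median densities were 31.8 with Pol II PS5 and 22.7 without.

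Seen from the methylation side, 139 of the 684 CG-rich distal peaks at or under 20% overlapped Pol II PS5 (20.3%, interval 17.4 to 23.5). Of those between the limits 11.4% did (10.2 to 12.6), and of those at or over 80% 7.35% (5.52 to 9.55). The highest score of the overlapping Pol II PS5 peaks had a median of 4.31, 3.51 and 3.54 in these classes, against 3.40 over the whole Pol II PS5 list. At 50 to 60 positions per 1000 bases the share with Pol II PS5 was 26.9% at or under 20% methylation (interval 19.9 to 34.9) and 10.2% above (8.77 to 11.7). At 60 to 80 it was 24.5% (19.1 to 30.5) and 10.9% (9.25 to 12.7). At 80 to 100 it was 14.4% (9.02 to 21.3) and 12.2% (8.87 to 16.1), and at 100 or more 13.5% (8.66 to 19.7) and 9.09% (4.93 to 15.0). In these last 2 classes the intervals overlapped. The widths of the 3 methylation classes had medians of 2903.5, 2924.5 and 2317 bases, and 1.46%, 7.54% and 24.8% of their peaks were on the low H3K4me1 scale. The part of width and H3K4me1 score in these shares was not tested. The shares with Pol II PS5 by methylation class were not computed for all peaks, so they cannot be called particular to the set. Of CG-rich distal peaks with Pol II PS5 27.5% were at or under 20%, and of those without 15.0%. These shares were 16.9% and 5.31% over all peaks. They were 36.6% and 28.2% in CG-rich peaks near start sites, and 5.52% and 2.13% in CG-poor distal peaks.

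ChIP-bisulfite reads methylation on the DNA that was precipitated with H3K4me1. Its levels are available for single CG sites that RRBS also measured, and over all peaks these lay from -10001 bases (upstream) to 1059379 bases (downstream) of a listed start site. CG-rich distal peaks held 5337 such sites in 1254 peaks (29.7% of the set). The sites lay 18089 to 687289 bases downstream of the listed start site, so this comparison covers only peaks downstream of a start site. These peaks differed from the rest of the set in level. Their mean RRBS level over the whole peak was 62.5% (1240 peaks), against 48.6% in the 2910 without a shared site.

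ChIP-bisulfite was lower than RRBS on average at the shared sites of CG-rich distal peaks. Averaged within each peak first, the level was 47.5% in ChIP-bisulfite (SD 36.1 over 1254 peaks) and 58.8% in RRBS (SD 29.95). The mean difference was -11.3 points (SD 31.1) and the median difference -7.65 points. It was negative in 739 peaks (58.9%, against 52.8% of all 53519 peaks with shared sites) and positive in 397 (31.7%, against 34.6%). The mean difference was -9.36 points over all peaks, -11.2 in CG-poor distal peaks and -4.92 in CG-rich peaks near start sites.

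The assays also differ in protocol, since ChIP DNA was fixed and sonicated and RRBS DNA was digested, and all shared sites lie in H3K4me1 peaks. A gap that goes with H3K4me1 and an offset between the protocols cannot be told apart. The depth behind the ChIP-bisulfite levels is unknown, as the files hold no read numbers for it. Of its levels in CG-rich distal peaks 68.8% were exactly 0 or 100, against 66.6% over all peaks.

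The gap was then compared among sites of like RRBS level, since a site low in RRBS can hardly be lower in the other assay. The bins use the same RRBS values that enter the gap. In CG-rich distal peaks the mean difference was -24.2 points at 81% to 100% in RRBS (1823 sites), -17.6 at 61% to 80% (861 sites), -12.3 at 41% to 60% (704 sites) and -8.31 at 21% to 40% (648 sites). Over all peaks the same bins gave -21.3, -14.7, -8.32 and -1.49 points. In the lowest bin, up to 20%, the difference was 6.36 points in CG-rich distal peaks (1301 sites) and 6.67 over all peaks. At 21% to 40% in RRBS, 70.2% of the sites of CG-rich distal peaks were at or under 20% in ChIP-bisulfite, against 61.1% over all peaks, 64.5% in CG-rich peaks near start sites and 60.3% in CG-poor distal peaks. The sites of 1 peak are not independent, and these differences were not tested.

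**Figure D4:**
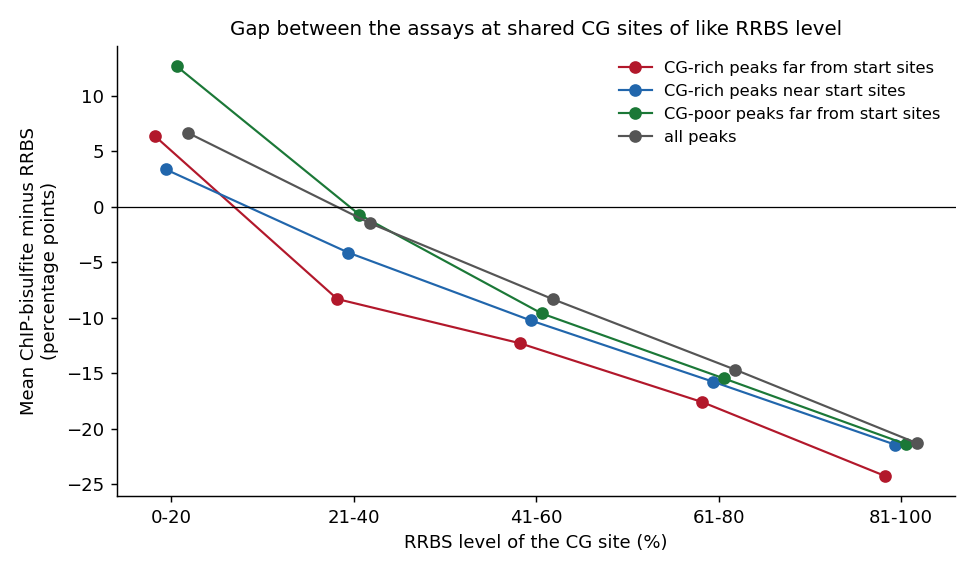
Mean difference ChIP-bisulfite minus RRBS (vertical axis, percentage points) at shared CG sites by RRBS level of the site (horizontal axis, %) for the 3 groups of peaks and for all peaks. In the 4 bins above 20% the points of CG-rich distal peaks lie lowest, from -8.31 to -24.2 points. In the bin up to 20% the 4 groups lie above 0.

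Along the set the gap was narrower where the CG density was higher and the RRBS level lower. It was -12.8 points at 50 to 60 positions per 1000 bases (632 peaks), -10.9 at 60 to 80 (453 peaks), -8.37 at 80 to 100 (104 peaks) and -4.80 at 100 or more (65 peaks). RRBS levels of the same peaks at their shared sites were 62.2%, 59.5%, 48.0% and 38.0%. With a Pol II PS5 peak the gap was -8.62 points (SD 25.8, 126 peaks) and without -11.6 points (SD 31.6, 1128 peaks). The RRBS levels of these peaks at their shared sites were 50.5% and 59.7%, and the part of this level in the gap was not tested. The 56 sites that lay directly inside a Pol II PS5 peak, in 33 peaks, averaged 28.3% in RRBS and 22.5% in ChIP-bisulfite. The 183 other sites of 27 of these peaks averaged 56.5% and 42.9%.

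A deposited list names differentially methylated CG sites. At all 167375 shared sites it held exactly those at or under 30% in one assay and at or over 70% in the other. In CG-rich distal peaks 637 of the 5337 sites were listed as lower in ChIP-bisulfite (11.9%, interval 11.1 to 12.8), where 10.2% of all shared sites were. As higher, 154 were listed (2.89%, 2.45 to 3.37), where 2.93% of all were. Only a site at 70% or more in RRBS can be listed lower. Of the 2330 such sites in CG-rich distal peaks 27.3% were listed (25.5 to 29.2), against 23.8% over all peaks and 24.4% in CG-poor distal peaks. Of the 1606 sites at 30% or less 9.59% were listed higher (8.19 to 11.1), against 9.02% over all peaks and 15.8% in CG-poor distal peaks. Lower sites lay in 387 CG-rich distal peaks and higher sites in 132, and 40 peaks held both.

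Sites in the outermost part of a CG-rich distal peak were on average more methylated than sites further in. Sites were placed in 5 equal zones from the ends of a peak to its centre. In the outermost zone RRBS averaged 67.1% and ChIP-bisulfite 57.2% over 839 sites. In the central zone they averaged 53.4% and 39.7% over 1216 sites. The zones between, from the outside inwards, averaged 55.6%, 53.1% and 52.5% in RRBS and 45.2%, 40.5% and 39.1% in ChIP-bisulfite. Most of the RRBS difference thus lay between the outermost zone and the next. Over all peaks the outermost and central zones averaged 60.8% and 50.9% in RRBS, and 53.4% and 41.9% in ChIP-bisulfite. In the 238 peaks with shared sites both in the outermost zone and in the 2 zones nearest the centre, the inner sites were lower by a mean of -12.5 points in RRBS (SD 39.3) and -14.0 points in ChIP-bisulfite (SD 56.8). The inner sites were lower in 58.8% of these peaks in RRBS and higher in 38.7%, against 55.3% and 41.2% over all peaks. In ChIP-bisulfite the inner sites were lower in 53.4% of them, against 49.9% over all peaks. Over all peaks the mean inner difference was -7.16 points in RRBS and -8.38 points in ChIP-bisulfite. The mean inner difference in RRBS was -17.7 points in CG-rich peaks near start sites and -10.3 points in CG-poor distal peaks.

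Sites of 1 CG-rich distal peak often differed widely, more so in ChIP-bisulfite. Among the 733 with at least 3 shared sites, 228 (31.1%) held both a site at or under 20% and one at or over 80% in RRBS, and 458 (62.5%) did in ChIP-bisulfite. Over all peaks with at least 3 shared sites these shares were 33.0% and 60.4%. The median SD between the sites of a peak was 25.4 points in RRBS, in the set as over all peaks. At or under 20% at each shared site in both assays were 30 peaks (4.09%, against 5.00% over all peaks), and at or over 80% at each were 21 (2.86%, against 2.69%).

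Single peaks show these states. Of the 699 CG-rich distal peaks with at least 10 RRBS C positions and 3 shared sites, the lowest RRBS level was 0.51% over 17 C positions and 424 reads, on scaffold_8 from 710683 to 712399. Of its 8 shared sites 7 were at 0% and 1 at 6% in RRBS, and ChIP-bisulfite was at 0% in all 8. It overlapped a Pol II PS5 peak with a score of 2.95, where 81 of these 699 eligible peaks overlapped at least 1. The other 4 of the 5 lowest had levels of 0.78% to 1.64%, and 2 of these 4 overlapped Pol II PS5. They lay on scaffold_52 from 11292893 to 11296469, on scaffold_38 from 18663978 to 18666709, on scaffold_65 from 5812191 to 5815320 and on scaffold_86 from 371676 to 376114.

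The peak on scaffold_86 had the most evidence, with 94 C positions and 1519 reads in RRBS. Of its 14 shared sites, each with 10 to 31 RRBS reads, 13 were at 0% and 1 at 10% in RRBS. In ChIP-bisulfite 13 were at 0% and 1 at 17%. It held 131.1 C positions per 1000 bases over 4438 bases and overlapped a Pol II PS5 peak with a score of 2.87, and the nearest listed start sites were 31208 bases (Inactive) and 32091 bases (Active) away.

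At the other end, the peak on scaffold_320 from 164290 to 166440 had an RRBS level of 100% over 11 C positions and 156 reads, at 87.4 positions per 1000 bases. Its 3 shared sites were at 100% in RRBS and at 0%, 100% and 100% in ChIP-bisulfite. The peak on scaffold_96 from 72047 to 76203 had 94.9% over 34 positions, and its 4 shared sites were at 88% to 100% in RRBS and 91% to 100% in ChIP-bisulfite. The other 3 of the 5 highest were on scaffold_87 from 3779855 to 3782050, on scaffold_121 from 2580895 to 2583663 and on scaffold_25 from 12561288 to 12562354, at 97.7%, 93.1% and 92.4%. None of the 5 overlapped a Pol II PS5 peak, where 81 of the 699 eligible peaks did, and 5 peaks are too few to compare.

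The largest difference with ChIP-bisulfite lower was on scaffold_45 from 12633873 to 12636051. Its 3 shared sites were at 85%, 100% and 94% in RRBS, on 13, 14 and 16 reads, and each was at 0% in ChIP-bisulfite, a mean difference of -93.0 points (SD 7.55). The sites lay at a median of 45578 bases downstream of the start site of ENSCPOG00000002727. On scaffold_104 from 1975006 to 1977270, at a median of 82212.5 bases downstream of the start site of ENSCPOG00000015198, 6 sites were at 64% to 100% in RRBS on 11 to 55 reads, and all were at 0% in ChIP-bisulfite (-87.2 points, SD 13.2). The peaks on scaffold_18 from 8134095 to 8134887, on scaffold_25 from 26521658 to 26523734 and on scaffold_90 from 6221661 to 6223630 had differences of -92.0, -88.3 and -84.8 points over 3, 3 and 4 sites. The whole-peak RRBS levels of the 5 were 73.8% to 89.4%, and the means at their shared sites 85.8% to 93.0%. None of the 5 overlapped Pol II PS5, where 81 of the 699 eligible peaks did, and 5 peaks are too few to compare. Gene symbols for these identifiers were not paired with them in the files used here.

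Differences in the other direction were smaller and less even. The largest was on scaffold_27 from 1227558 to 1231397, listed with ENSCPOG00000014239. Its 4 shared sites were at 0%, 27%, 0% and 0% in RRBS, on 11 or 12 reads each, and at 59%, 100%, 0% and 92% in ChIP-bisulfite (56.0 points, SD 39.7). Over the whole peak RRBS was at 56.6% on 43 C positions and 695 reads, above the mean of 6.75% at its 4 shared sites. On scaffold_104 from 3534396 to 3540014, listed with ENSCPOG00000026494, the 4 sites at -2040 to -1888 bases from the peak centre were at 83% to 100% in RRBS. The 3 sites at -662 to -630 bases were at 0%, on 13 or 14 reads. All 7 were at 100% in ChIP-bisulfite, so the stretches differed in RRBS only. The other 3 were on scaffold_96 from 2987511 to 2989028, on scaffold_42 from 342807 to 348872 and on scaffold_0 from 86941858 to 86944748, with differences of 41.3 to 47.8 points. ChIP-bisulfite was higher or equal at all 13 sites of these 3 peaks. The whole-peak RRBS levels of the other 4 peaks with ChIP-bisulfite higher were 63.0% to 71.7%, above the means of 48.3% to 54.7% at their shared sites.

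**Figure D5:**
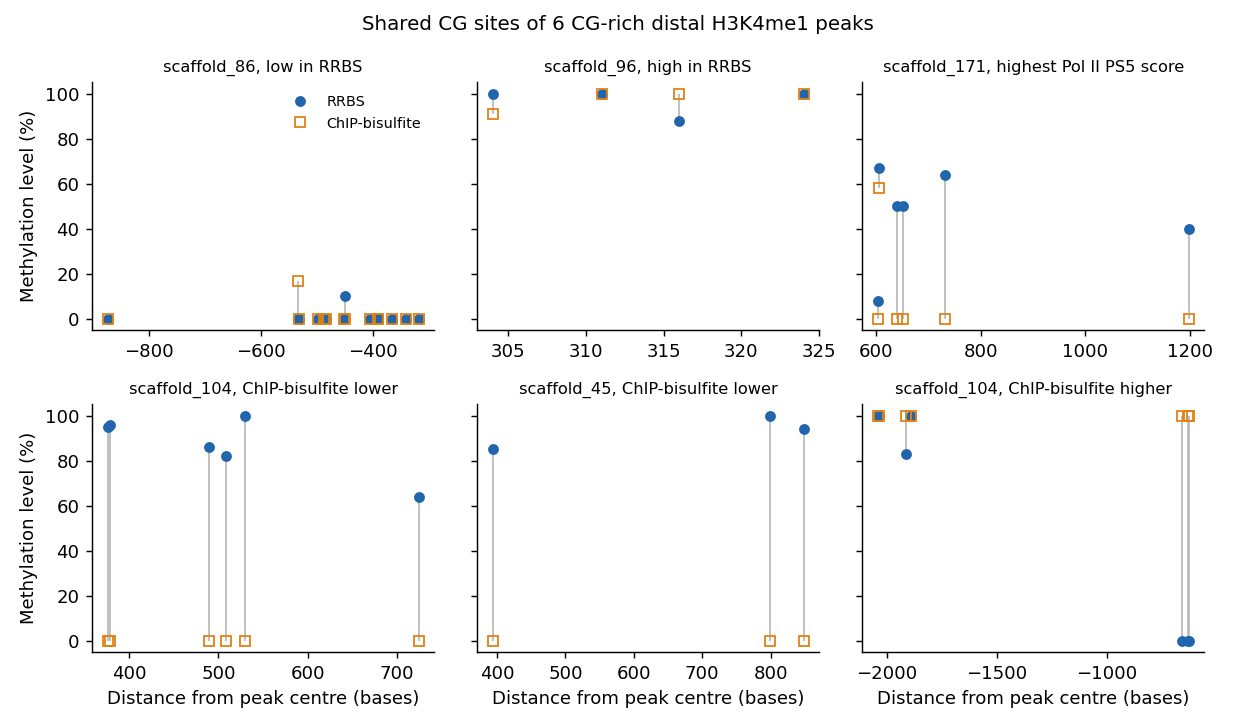
Methylation level (vertical axis, %) of each shared CG site in RRBS (filled circles) and ChIP-bisulfite (open squares) by distance from the peak centre (horizontal axis, bases; its range differs between panels) in 6 CG-rich distal peaks named in the text (highest Pol II PS5 score refers to the eligible peaks). The scaffold_86 sites lie near 0% and the first scaffold_96 peak near 100% in both assays. Sites of the scaffold_45 peak and of the scaffold_104 peak with ChIP-bisulfite lower split between the assays. In the scaffold_104 peak with ChIP-bisulfite higher only the sites nearest the centre lie far apart.

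The 5 eligible CG-rich distal peaks with the highest Pol II PS5 scores had RRBS levels of 40.2% to 89.2%. Only 81 of the 513 CG-rich distal peaks with Pol II PS5 were eligible, and peaks with a shared site were on average more methylated. Among all CG-rich distal peaks with Pol II PS5 the median score was highest at or under 20% methylation (4.31, against 3.51 and 3.54 in the other classes). Over the whole set the highest score was 91.7, and among eligible peaks 22.1, on scaffold_171 from 1549140 to 1552303. There the RRBS level was 66.4% over 24 C positions. Its 6 shared sites were at 8% to 67% in RRBS, and 5 of them were at 0% in ChIP-bisulfite and 1 at 58%. The next, with scores of 10.3 and 9.82, were on scaffold_535 from 75496 to 82510, which held 5 Pol II PS5 peaks, and on scaffold_143 from 46397 to 52078. Their RRBS levels were 52.9% and 40.2%. The remaining peaks were on scaffold_10 from 309861 to 313015 at 42.04%, and on scaffold_160 from 1446721 to 1453433 at 89.2%, where all 9 shared sites were at 100% in ChIP-bisulfite.

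CG-rich distal peaks were gathered on some scaffolds. Scaffold_25 held 236 of them, 11.04% of its 2137 peaks, with a median RRBS level of 68.9%. On scaffold_171 they made up 85 of 164 peaks (51.8%), and none of the 85 was at or under 20%. Over all peaks 4.22% were CG-rich and distal and 7.72% CG-rich and near a start site. CG-rich peaks at any distance numbered 511 of the 2137 on scaffold_25 and 117 of the 164 on scaffold_171. Those near start sites were thus frequent there too. Scaffolds whose last peak ended before 5000000 bases held 1246 CG-rich distal peaks (29.5%) but 12.8% of all peaks. The mean RRBS level was 60.7% there (SD 22.6, 1231 peaks) and 49.4% on the longer scaffolds (SD 27.3, 2919 peaks). The median densities were alike, at 62.9 and 61.3 positions per 1000 bases. On the longer scaffolds alone CG-rich peaks near start sites averaged 37.8% and CG-poor distal peaks 67.8%, so the order of the groups was the same. How complete the start sites were on short scaffolds was not tested.

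Of the CG-rich distal peaks 1566 (37.1%) had another within 10000 bases. Neighbours so close differed by a median of 16.1 points in RRBS (979 pairs), and successive CG-rich distal peaks more than 100000 bases apart on a scaffold by 24.1 points (1771 pairs). The longest runs of such neighbours had 14 peaks each, on scaffold_25 from 28085420 to 28179027 and on scaffold_96 from 5670369 to 5770250. Levels within them ran from 33.7% to 90.4% and from 15.5% to 87.4%. These counts and differences were not computed for all peaks, so they cannot be called particular to the set. The 4222 peaks lay in 4004 peaks of the H3K4me1 list, and 157 of those held more than 1. Some close neighbours can therefore be parts of 1 list peak.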

How the data were processed

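Peak levels were deposited by the authors as percent, with RRBS reads (treated as estimated counts, since some were not whole), counts of C positions and distances, per the file headers. Site levels were deposited as whole percent and RRBS reads per C position as counts from 10 reads upwards. Peak scores are the authors'. The submitters' processing notes name BSMAP 2.74, Bismark 0.12.5, Bowtie2 2.2.3, SAMtools 1.1, HOMER 4.6, MACS2 and methylKit. Not given in the sources used here are the genome build and which RRBS libraries entered the levels. Positions stand as deposited, and whether they count from 0 or 1 is not stated.

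Members and lists were chosen with earlier results of these data known. The ChIP-bisulfite columns of the table of averages are displaced by 1 to 2 lines and were not used. Each shared site was counted once, with the transcript of nearest start site, and joined to the peak that holds it (167375 sites). Overlap with Pol II PS5 required 1 base. Single peaks were named by rule, 5 per set: lowest and highest RRBS level, largest difference in each direction, highest Pol II PS5 score (at least 10 RRBS C positions and 3 shared sites), and highest density. Gene lists and tissue markers could not be counted, since none of 17674 gene identifiers matched a symbol. Joins were checked on simulated data. Python 3.11.15, pandas 2.3.3 and scipy 1.17.1 were used. The unconverted RRBS libraries were not analysed here.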

Additional observations from a re-analysis of the deposited data

How the results depend on the processing

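Alternatives moved 17 of 48 values beyond the main value's interval (95% across peaks for means, exact binomial for shares, 1.5 times for the number of peaks). Only the difference between the assays and that between peaks with and without Pol II PS5 could change direction, and neither did. Counts, shares and mean levels have no direction to change. The number of CG-rich distal peaks was 7930 with at least 40 C positions per 1000 bases, 2352 with at least 60 and 2060 with start sites over 50000 bases away. The mean RRBS level was 57.6% with at least 40 positions, 46.8% with at least 60, 51.8% at widths of at least 1000 bases, 58.8% over shared sites and 49.4% on scaffolds whose last peak ends at or beyond 5000000 bases, an alternative chosen after seeing the data. On those scaffolds 20.1% of the peaks were at or under 20% (6.65% of all peaks there), and at or under 10% were 8.77% on all scaffolds (3.33% of all peaks). The share with Pol II PS5 was 10.9% with at least 40 positions, 11.2% beyond 50000 bases and 7.06% with Pol II PS5 peaks at or above the median score (5.46% of all peaks). ChIP-bisulfite averaged 43.7% with at least 3 shared sites per peak and 43.5% over sites. Counting sites that differed by 40 points or more, instead of listed sites, gave 23.6% lower and 8.001% higher, against 20.4% and 8.53% over all sites. The difference between the assays (-12.8 to -9.87 points) and that between peaks with and without Pol II PS5 (-12.8 to -10.8 points) stayed within their intervals under the alternatives run. These intervals take peaks as units and the alternatives use overlapping peaks, so they do not measure how repeatable a difference is between animals. No paired analysis was possible because the deposited values pool the 3 animals, and for the same reason no replicate could be left out. ChIP-bisulfite depth is unknown.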

Other observations

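Sites of 698 genes lay in CG-rich distal peaks, and 499 of these genes held sites in 1 such peak, 199 in 2 or more and 43 in 5 or more, with 34 as the highest number. The same counts were not made over all peaks, so they show no trait particular to the set. Parts of 1 list peak were counted separately. A Pol II PS5 score above 0 was listed for a transcript of 984 of the 1254 CG-rich distal peaks with shared sites (78.5%, exact 95% interval 76.1 to 80.7). The share was 84.5% in CG-poor distal peaks, 53.7% in CG-rich peaks near start sites and 66.5% over all peaks. Shared sites of CG-rich distal peaks lay at a median of 50102 bases downstream of the listed start site. The medians were 69549.5 bases in CG-poor distal peaks and 212 bases in CG-rich peaks near start sites. The part of this distance in the shares was not tested. Peaks of transcripts with a score averaged 59.3% in RRBS and 48.0% in ChIP-bisulfite, and the 270 peaks of transcripts without averaged 57.1% and 45.4%.

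Very high RRBS depth was found in few CG-rich distal peaks. The 99th percentile of all peaks was 55 reads per C position, and 28 CG-rich distal peaks (0.663%) exceeded it. The highest lay at the start of scaffold_71, from 348 to 1308, with 472503 reads over 37 C positions, an RRBS level of 55.4%, a Pol II PS5 score of 28.5 and the highest H3K4me1 score of the list peaks that hold a CG-rich distal peak (3164). On scaffold_42 from 15949587 to 15951011 a peak with 151.7 C positions per 1000 bases had 164.1 reads per C position, an RRBS level of 92.8% and a Pol II PS5 score of 13.4. Its density is in the class whose median level was 16.9%.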
